A study of Rattus norvegicus with 2 samples.

Results

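The genes described here encode proteoglycan core proteins, the enzymes that build, sulfate and trim their glycosaminoglycan chains, and the makers, receptor and breakers of hyaluronan. The rule that picks them uses gene symbols and no measured value, although it was written with earlier results of these data known. Of the 36685 probe sets on the array, 70 carried a single symbol of this kind (the families Gpc, Sdc, Has, Hyal, Chst, Ext, Ndst, Hs3st, Hs6st and Chsy, and 19 further genes such as Vcan, Bgn, Cd44 and Sulf2). Each of the 70 genes had 1 probe set, so no gene rests on an average of several. Expression was compared between 1 array of the undifferentiated rat C6 glioma line, an established line, and 1 array of the same line after small-molecule treatment, which the study calls SMiG and asks to resemble benign glia. For SMiG the description lists forskolin (an adenylyl cyclase activator), rapamycin (an mTOR inhibitor) and I-BET151 (a BET bromodomain inhibitor). A protocol text carried by both samples instead gives 20 µM CHIR99021, a GSK3 inhibitor, with 100 µM forskolin over 35 days, and the conflict could not be settled. Both cultures were in the same serum-containing medium, only 1 glioma line was used, and no separate vehicle control was analysed here. Replicates are lacking (1 array a group) and no test could be run, so every difference compares these 2 arrays and not the conditions, and the number of arrays limits the precision.

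Proteoglycans are proteins that carry long sulfated sugar chains, mainly heparan sulfate or chondroitin and dermatan sulfate. Heparan sulfate chains bind growth factors at the cell surface, and the pattern of sulfate groups decides which factors bind. Hyaluronan is an unsulfated chain made at the plasma membrane without a core protein, and together with chondroitin sulfate proteoglycans such as versican and brevican it makes up much of the matrix of brain and of glioma.

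Values are deposited expression levels on a log2 scale, and differences are SMiG minus C6 on that scale, so that 1 unit is 2-fold. A gene counted as detected when it lay above the 95th percentile of 1340 olfactory and vomeronasal receptor genes, taken as silent, on at least 1 array. This floor was 4.83 in C6 and 4.96 in SMiG. By this rule 47 of the 70 members were detected and 23 were not. The difference of the silent genes had an SD of 0.32, which describes technical spread between these arrays at background levels and holds no variation between cultures. The spread at higher levels, where most detected members lay, was not measured. The 2 columns of values had medians of 4.84 and 4.86. In bulk RNA, fewer cells that express a gene and less RNA per cell cannot be told apart.

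Most detected members were within 2-fold of their C6 level, and a few were past 2-fold in each direction. Of the 47 detected members, 6 were lower in SMiG by 2-fold or more and 3 were higher by as much. The lower ones were Sulf2, Hs3st1, Sdc1, Has2, Chst15 and Dse, and the higher ones Hyal1, Chst12 and Chst2. As shares these are 12.8% lower and 6.38% higher, beside 6.52% lower and 3.19% higher among all 10941 detected genes. These shares rest on counts of 6 and 3, so a change of a few genes would bring them to the level of all genes. The median difference of the detected members was 0.06, against −0.01 for all detected genes, and 55.3% of them had a positive difference against 48.9% of all. The members nearest the 2-fold threshold were Chst2 at 1.21 and Dse at −1.22 on the outer side, and Chsy3 at 0.93 and Glce at −0.92 on the inner side.

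**Figure D1:**
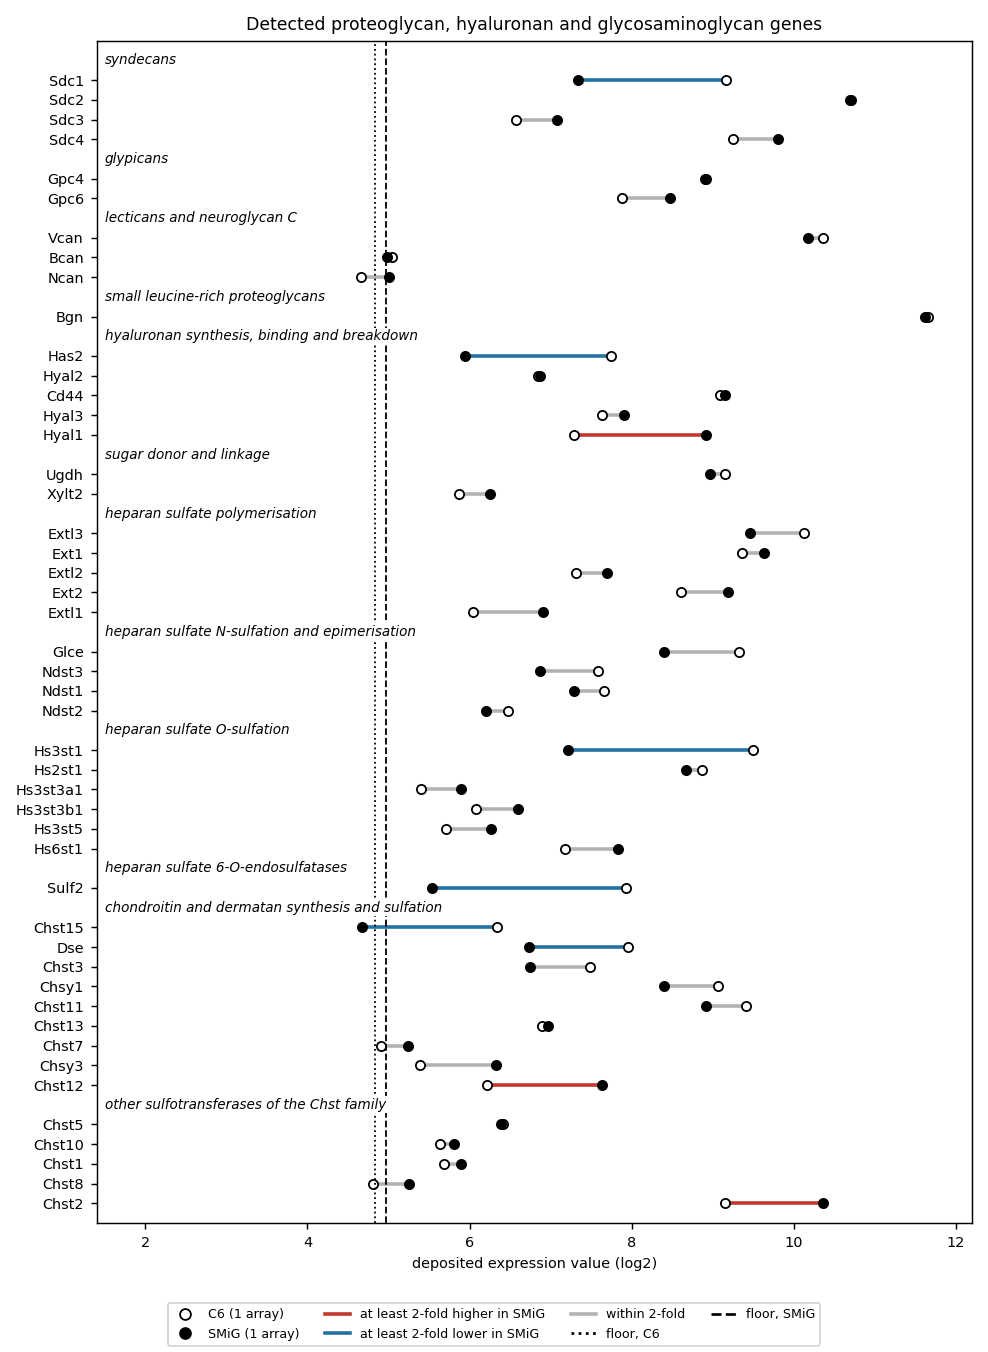
Deposited log2 expression (horizontal axis) of the 47 detected members, grouped by role, with C6 as open and SMiG as filled points and 1 array each; vertical lines mark the detection floors of 4.83 (C6) and 4.96 (SMiG), and levels are to be read within a gene, not between genes. The 6 blue bars (Sulf2, Hs3st1, Sdc1, Has2, Chst15, Dse) and 3 red bars (Hyal1, Chst12, Chst2) span at least 2-fold.

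Among the membrane-bound heparan sulfate proteoglycans, the syndecans did not move as a family. Sdc1, encoding syndecan-1, a transmembrane co-receptor for growth factors, stood at 9.16 in C6 and 7.33 in SMiG. It was 3.54-fold lower in SMiG, at percentile 1.71 of the differences of all detected genes. The other three syndecans were within 2-fold. Sdc2, encoding a syndecan common on mesenchymal cells, was at 10.71 and 10.69. Sdc3, the syndecan typical of neural tissue, was at 6.57 in C6 and 7.08 in SMiG, a difference of 0.51. Sdc4, encoding a syndecan of focal adhesions, was at 9.25 and 9.81, a difference of 0.56. The gap between the differences of Sdc4 and Sdc1 was 2.38, in a pair picked after the values were seen.

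Glypicans hold their heparan sulfate chains at the surface through a lipid anchor. Gpc6 was at 7.87 in C6 and 8.48 in SMiG, a difference of 0.60. Gpc4 differed by 0.02, at 8.90 and 8.92. Both were thus within 2-fold, and Gpc2, Gpc3 and Gpc5 were below the floor on both arrays. Gpc2, Gpc3 and Gpc5 had levels from 3.69 (Gpc5 in C6) to 4.61 (Gpc2 in SMiG). Gpc1 had no probe set with a single symbol, so its level is not known here.

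The enzymes that lay down the heparan sulfate backbone were within 2-fold. Ext1 and Ext2 encode the subunits of the polymerase, and Extl1, Extl2 and Extl3 related transferases, of which Extl3 acts in starting the chain. Ext1 was at 9.36 in C6 and 9.63 in SMiG, and Ext2 at 8.61 and 9.19. Extl1 had the highest difference of the group, 0.87, and Extl3 the lowest, −0.66, from 10.12 in C6 to 9.46 in SMiG. Extl2 was at 7.31 and 7.69. In all, 4 of the 5 had a positive difference, beside 48.9% of all detected genes, and the median of the 5 was 0.39.

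The 4 detected genes of the N-sulfation and epimerisation step that follows had negative differences, none of 2-fold. Among all detected genes 48.9% had a positive difference, and a count of 4 is too small to set against that share. The Ndst genes encode enzymes that replace acetyl by sulfate on the amino sugar, and Glce encodes the epimerase that turns glucuronic into iduronic acid. Glce was at 9.32 in C6 and 8.40 in SMiG, 1.89-fold lower. Ndst3 was at 7.58 and 6.87, Ndst1 at 7.66 and 7.28, and Ndst2 at 6.48 and 6.20. The median of these 4 detected genes was −0.55, and Ndst4 was below the floor on both arrays.

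Sulf2 and Hs3st1, which had the widest negative differences of the members, encode enzymes that act on the sulfate pattern of heparan sulfate. Sulf2 encodes an extracellular sulfatase that takes 6-O-sulfate groups off heparan sulfate and so changes which factors the chain holds. It stood at 7.93 in C6 and 5.54 in SMiG and was 5.26-fold lower, at percentile 0.777 of all detected genes. Sulf1, its paralog, was below the floor on both arrays, at 4.45 and 3.90. Hs3st1 encodes a 3-O-sulfotransferase that completes the antithrombin-binding site of heparan sulfate. It stood at 9.49 in C6 and 7.22 in SMiG and was 4.84-fold lower, at percentile 0.932.

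The other O-sulfotransferases did not share the low value of Hs3st1. Hs6st1, encoding a 6-O-sulfotransferase, the writer of the group that Sulf2 removes, was at 7.18 in C6 and 7.83 in SMiG, a difference of 0.65. The gap between the differences of Hs6st1 and Sulf2 was 3.04, the pair again picked after the values were seen. Hs3st5, Hs3st3b1 and Hs3st3a1, which encode further 3-O-sulfotransferases, had differences of 0.56, 0.51 and 0.50. Hs3st3a1 and Hs3st3b1 are close paralogs whose probes may share signal, and their values are uncertain. Hs2st1, encoding the 2-O-sulfotransferase, was at 8.87 and 8.67. Hs3st2, Hs3st6 and Hs6st2 were below the floor on both arrays. Over the 21 heparan sulfate enzymes, 16 were detected, and their median was 0.03. Of these, 8 had a positive and 8 a negative difference, beside 48.9% positive among all detected genes.

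Start-site sequences are printed for Sulf2, Hs3st1 and Sdc1, the 3 members with the most negative differences, to show the DNA next to their starts. Each is the 250 bases before the gene's start in RefSeq (GRCr8), 5′ to 3′ on the gene's strand. Letters in capitals match GGGCGG (the GC box), CCAAT (the CCAAT box), ACGTG (core of the hypoxia response element), TGACG (a partial cAMP response element) or TGANTCA (the AP-1 element), on either strand. ACGTG and TGACG can overlap.
Sulf2 (chr3:175323652-175323901, minus strand): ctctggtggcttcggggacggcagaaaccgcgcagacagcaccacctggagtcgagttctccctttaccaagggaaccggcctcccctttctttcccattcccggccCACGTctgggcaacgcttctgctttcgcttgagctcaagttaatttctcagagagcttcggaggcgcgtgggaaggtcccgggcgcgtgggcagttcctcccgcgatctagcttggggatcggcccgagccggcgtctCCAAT
Hs3st1 (chr14:75398723-75398972, plus strand): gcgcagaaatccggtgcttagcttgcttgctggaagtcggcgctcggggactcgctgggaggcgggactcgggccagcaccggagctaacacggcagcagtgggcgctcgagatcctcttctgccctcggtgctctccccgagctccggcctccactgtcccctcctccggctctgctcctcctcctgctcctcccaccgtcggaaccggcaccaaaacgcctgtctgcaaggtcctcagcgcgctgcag
Sdc1 (chr6:37281791-37282040, plus strand): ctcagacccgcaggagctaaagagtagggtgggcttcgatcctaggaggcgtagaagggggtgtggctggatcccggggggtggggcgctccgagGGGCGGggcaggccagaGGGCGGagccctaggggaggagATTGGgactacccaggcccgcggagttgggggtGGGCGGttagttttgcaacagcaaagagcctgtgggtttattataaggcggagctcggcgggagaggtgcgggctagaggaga
Of the 70 members, 56 matched such a window by gene number, and Has2 was among the 14 without one. The Sdc1 window held 3 matches to GGGCGG and 1 to CCAAT, the Sulf2 window 1 each to CCAAT and ACGTG, and the Hs3st1 window none to the 5 motifs. Among all 33469 windows of this length, 30.5% held GGGCGG, 34.0% CCAAT, 16.6% ACGTG, 18.2% TGACG and 6.34% TGANTCA. The 3 windows had GC contents of 62.4% (Sulf2), 67.6% (Hs3st1) and 65.2% (Sdc1), above the median of 51.2% over all windows. A match is a description of letters only.

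**Figure D2:**
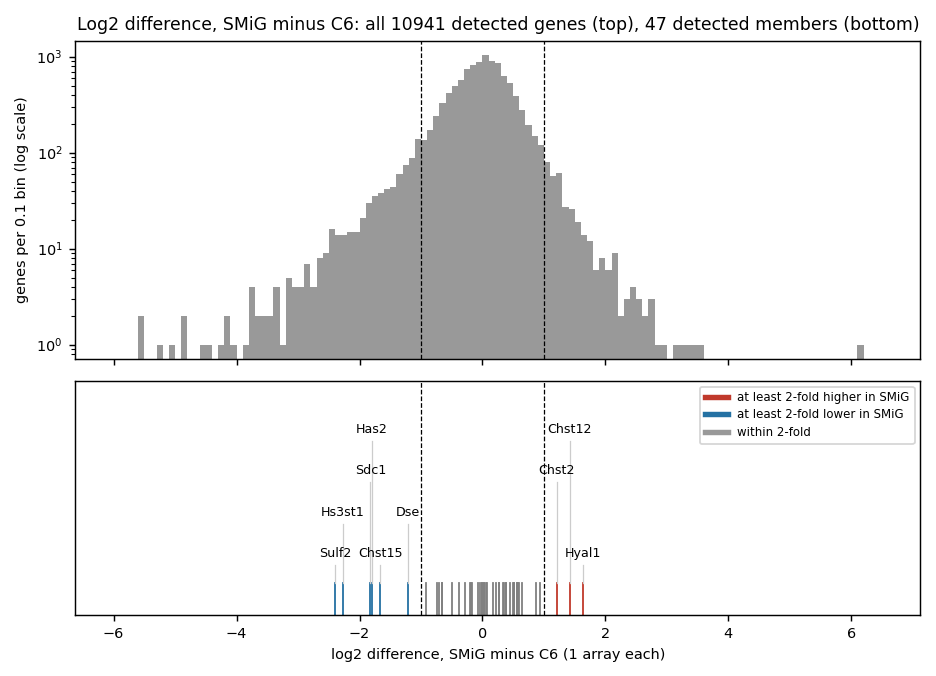
Top, the number of genes (log axis) per 0.1 bin of the log2 difference, SMiG minus C6, for all 10941 detected genes; bottom, a tick for each of the 47 detected members, with those past 2-fold named. Sulf2 at −2.39 and Hs3st1 at −2.28 lie furthest to the left and Hyal1 at 1.63 furthest to the right, and the other members between −0.92 and 0.93 are unnamed.

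Among the members that encode matrix proteoglycan core proteins, Vcan and Bgn were clearly detected and barely differed. This does not hold for core proteins outside the members, where Col18a1 was 6.57-fold higher and Col12a1 2.17-fold lower in SMiG. Vcan, encoding versican, the large hyaluronan-binding proteoglycan of brain and glioma matrix, was at 10.35 in C6 and 10.17 in SMiG. Bgn, encoding biglycan, a small leucine-rich proteoglycan, was at 11.65 and 11.61. Bcan, encoding brevican, was at 5.05 and 4.98, and Ncan, encoding neurocan, at 4.67 in C6 and 5.01 in SMiG. Both of these genes lay within 0.22 of the floor at best, so they carry little signal on either array. Acan, Cspg5, Dcn, Lum and Fmod, encoding aggrecan, neuroglycan C, decorin, lumican and fibromodulin, were below the floor on both. Of all 18 core protein genes among the members, syndecans and glypicans included, 10 were detected, and their median difference was 0.00. Sdc1 alone was past 2-fold, beside 6.52% lower and 3.19% higher among all detected genes.

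The chondroitin and dermatan sulfate enzymes held members on both sides of the threshold. Chst15 encodes the enzyme that adds a further 6-O-sulfate to 4-sulfated chondroitin. It was at 6.34 in C6 and 4.68 in SMiG, below the floor, and so at least 2.60-fold lower. Dse encodes the epimerase that makes dermatan from chondroitin, and was at 7.95 in C6 and 6.74 in SMiG, 2.32-fold lower. Chst12 encodes a chondroitin 4-O-sulfotransferase, and was at 6.21 in C6 and 7.63 in SMiG, 2.67-fold higher. Of the 9 detected genes of this class, 2 were thus past 2-fold downward (22.2%) and 1 upward (11.1%). Among all detected genes the shares were 6.52% and 3.19%, and counts of 2 and 1 are too small to set against them.

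The remaining genes of this class were within 2-fold. Chst11, which encodes the other main chondroitin 4-O-sulfotransferase, was at 9.41 in C6 and 8.92 in SMiG. Its difference of −0.50 was 1.91 below that of Chst12, in a pair picked after the values were seen. Chsy1 and Chsy3 encode chondroitin synthases. Chsy1 was at 9.06 in C6 and 8.39 in SMiG, and Chsy3 at 5.39 and 6.32. The gap between their differences was 1.60, the pair again picked after the values were seen. Chst3, encoding a chondroitin 6-O-sulfotransferase, was at 7.48 in C6 and 6.74 in SMiG. Its relative Chst7 was at 4.91 and 5.24, close to the floor. Chst13 differed by 0.08, and Chst14 was below the floor on both arrays. Over the 9 detected genes of the class, 5 had a negative and 4 a positive difference, beside 48.9% positive among all detected genes. Their median was −0.50.

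Of the Chst genes that act mainly on other glycans, Chst2, encoding an N-acetylglucosamine 6-O-sulfotransferase, was the one past 2-fold. It was at 9.15 in C6 and 10.36 in SMiG, 2.31-fold higher. Chst8, encoding a sulfotransferase of N-glycans, was just below the floor in C6 at 4.81 and at 5.25 in SMiG, at least 1.33-fold higher by that bound. Chst1, Chst10 and Chst5 had differences of 0.21, 0.18 and −0.02. Chst4 and Chst9 were below the floor on both arrays.

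For hyaluronan, the detected synthase was lower and a hyaluronidase higher in SMiG, while the receptor gene Cd44 was level. Of the 5 detected members of this class, 1 was thus past 2-fold downward and 1 upward. Among all detected genes the shares were 6.52% and 3.19%, and such counts are too small to set against them. Has2, encoding a hyaluronan synthase of the plasma membrane, was at 7.74 in C6 and 5.94 in SMiG, 3.48-fold lower. Has1 and Has3 were below the floor on both arrays, at 3.74 and 3.43 for Has1 and at 4.06 and 4.81 for Has3. Hyal1, encoding a lysosomal hyaluronidase, was at 7.29 in C6 and 8.92 in SMiG. It was 3.09-fold higher, at percentile 99.3 of all detected genes. Cd44, encoding the main cell-surface receptor for hyaluronan, was at 9.09 and 9.15. Hmmr, which encodes another hyaluronan receptor and is not a member, was at 8.07 in C6 and 7.25 in SMiG, 1.76-fold lower. Hapln1, encoding a link protein that ties hyaluronan to lecticans, was below the floor on both arrays, as were Hyal4, Hyal5 and Hyal6.

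Hyal1 has its relatives Hyal2 and Hyal3 as close neighbours in the rat genome, in the order Hyal2, Hyal1, Naa80 and Hyal3. Hyal2, encoding a lipid-anchored hyaluronidase, was at 6.84 in C6 and 6.87 in SMiG, and Hyal3 at 7.63 and 7.91. Neither neighbour came near the difference of 1.63 seen for Hyal1. The 250 bases before each start (RefSeq, GRCr8) are given to show the DNA there, with capitals as above. A link between these letters and the expression values was not tested.
Hyal1 (chr8:117129061-117129310, plus strand): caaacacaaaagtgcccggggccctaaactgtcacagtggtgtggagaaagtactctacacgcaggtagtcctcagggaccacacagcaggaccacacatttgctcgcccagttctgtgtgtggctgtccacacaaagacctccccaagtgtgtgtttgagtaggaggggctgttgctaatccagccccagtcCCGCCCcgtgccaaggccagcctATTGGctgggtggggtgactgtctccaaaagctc
Hyal2 (chr8:117121552-117121801, plus strand): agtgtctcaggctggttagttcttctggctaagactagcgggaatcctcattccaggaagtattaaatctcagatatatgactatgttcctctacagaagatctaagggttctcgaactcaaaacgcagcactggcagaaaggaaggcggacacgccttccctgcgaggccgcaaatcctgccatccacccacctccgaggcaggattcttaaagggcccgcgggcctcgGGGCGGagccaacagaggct
Hyal3 (chr8:117132778-117133027, plus strand): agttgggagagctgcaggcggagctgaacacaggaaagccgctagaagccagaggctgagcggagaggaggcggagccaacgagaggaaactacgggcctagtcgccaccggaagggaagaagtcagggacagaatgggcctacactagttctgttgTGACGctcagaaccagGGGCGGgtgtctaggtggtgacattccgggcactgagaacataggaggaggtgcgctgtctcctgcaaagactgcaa
Each of the 3 windows held 1 match to GGGCGG. The Hyal1 window also held 1 match to CCAAT, and the Hyal3 window 1 to TGACG. Among all windows 30.5% held GGGCGG, 34.0% CCAAT and 18.2% TGACG. The count of CG dinucleotides was 5 in the Hyal1 window and 12 in each of the Hyal2 and Hyal3 windows, against a median of 5 over all windows.

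The supply of precursors was represented by 3 members. Ugdh, encoding the dehydrogenase that makes UDP-glucuronic acid for every chain of this kind, was at 9.14 in C6 and 8.97 in SMiG. Xylt2, encoding a xylosyltransferase that starts the linkage to the core protein, was at 5.87 and 6.25. Both were within 2-fold, and Xylt1 was below the floor on both arrays.

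Other genes of the same pathway were taken from 4 lists of textbook members. In the list of linkage, chondroitin and sulfate donor enzymes, 23 of 25 measured genes were detected, and their median was 0.22, with 4 higher and 2 lower by 2-fold or more, beside 3.19% higher and 6.52% lower among all detected genes. Chpf, encoding a chondroitin polymerising factor, was at 6.76 in C6 and 8.11 in SMiG, 2.55-fold higher. Slc35b2, encoding the Golgi transporter for the sulfate donor PAPS, was 2.27-fold higher, from 7.25 to 8.43. Fam20b, encoding the kinase of the linkage xylose, and Ust, encoding a uronyl 2-O-sulfotransferase, were 2.18-fold and 2.02-fold higher, at 9.33 and 7.99 in SMiG. On the other side, Slc35d1, encoding a transporter of nucleotide sugars into the endoplasmic reticulum, was at 7.53 in C6 and 6.34 in SMiG. Papss2, a synthase of PAPS, was at 7.73 and 6.62, whereas its paralog Papss1 was at 10.29 and 10.69. Dsel, paralog of Dse, had a difference of 0.73, 1.95 above that of Dse, in a pair picked after the values were seen. The genes past 2-fold in this list were thus found in linkage, chain growth and sulfate supply alike, and Ust, at 1.01, lay at the threshold.

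Of the other core proteins, 11 of 23 measured genes were detected, and their median was 0.17, with 2 higher and 2 lower by 2-fold or more, beside the same 3.19% and 6.52% of all detected genes. Tgfbr3, encoding betaglycan, a co-receptor for TGF-beta that can carry sulfated chains, was below the floor in C6 at 4.72 and at 6.90 in SMiG, at least 4.21-fold higher. Col18a1, a collagen with heparan sulfate chains, was at 6.82 and 9.54. Srgn, encoding serglycin, the proteoglycan of secretory granules, was at 6.55 in C6 and 5.09 in SMiG, 2.75-fold lower. Col12a1, a collagen that can carry chondroitin sulfate, was 2.17-fold lower, from 9.06 to 7.95.

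In the list of lysosomal breakdown enzymes, which leaves out the member Hyal1 (3.09-fold higher), 14 genes were measured and 11 detected. The 11 include Sumf1 and Sumf2, at 0.24 and 0.40, which encode proteins of the endoplasmic reticulum and not lysosomal enzymes. Each of the 11 was within 2-fold, whereas 3.19% of all detected genes were higher and 6.52% lower by 2-fold or more. The median of the 11 was 0.30, and 8 had a positive difference, beside 48.9% of all detected genes. Galns, encoding a sulfatase of keratan and chondroitin sulfate, was highest at 0.66. Hgsnat, encoding an acetyltransferase of heparan sulfate breakdown, was lowest at −0.67, next to Gusb (beta-glucuronidase) at −0.60. Arsb, encoding arylsulfatase B, was at 0.57. In the list of hyaluronan receptors, link proteins and matrix partners, 9 of 17 measured genes were detected, and their median was −0.52. The difference was negative for 7 and positive for 2, beside 48.9% positive among all detected genes. By measured values 1 was higher and 1 lower by 2-fold or more, beside the same 3.19% and 6.52%. Habp4, encoding an intracellular hyaluronan-binding protein, was 2.04-fold higher. Tnr, encoding the lectican-binding protein tenascin-R, had a difference of −1.62 but was below the floor in SMiG, so that only at least 1.51-fold is supported. Msn, encoding moesin, which links CD44 to actin, was at 10.94 in C6 and 9.96 in SMiG. Cemip2, encoding a cell-surface hyaluronan-binding protein, was at 6.20 and 7.05, a difference of 0.85.

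**Figure D3:**
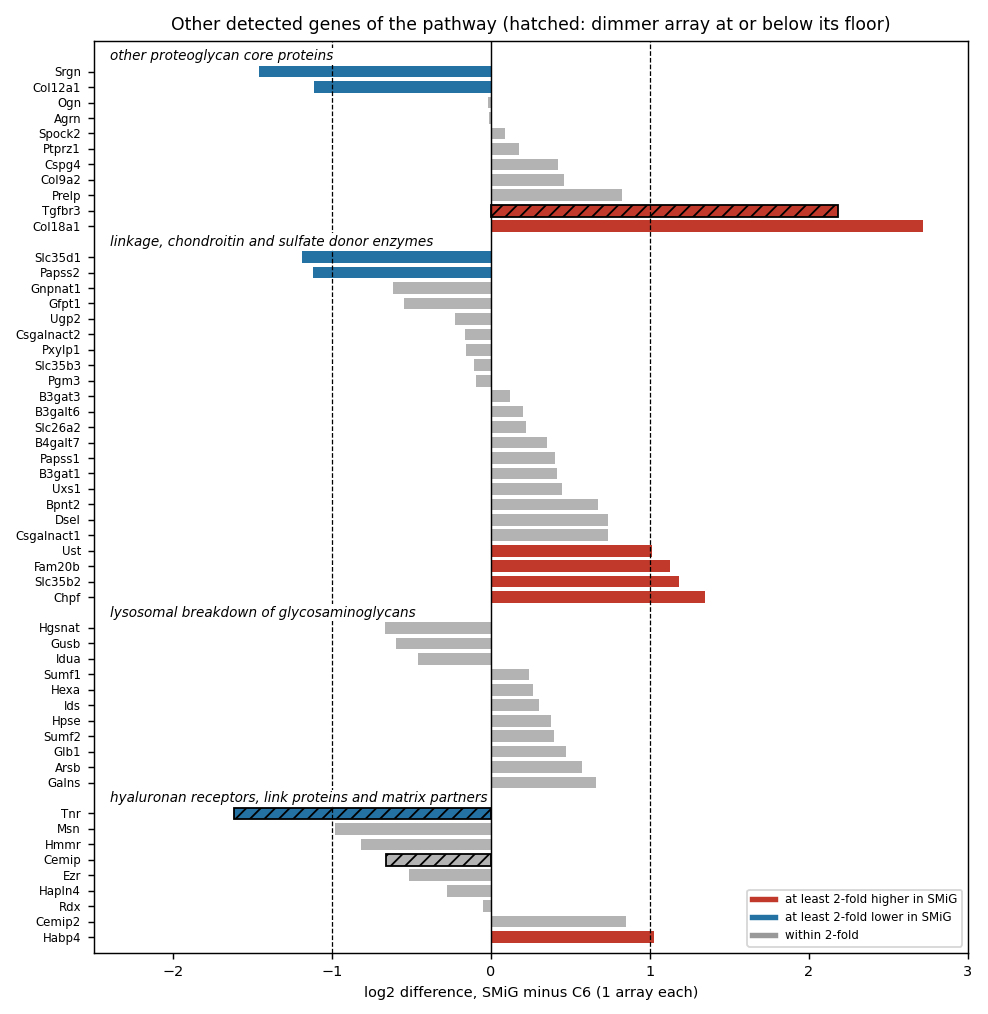
Log2 difference, SMiG minus C6 (horizontal axis, 1 array each), of the detected genes in 4 lists of pathway genes that are not members; red and blue bars are at least 2-fold higher or lower, dashed lines mark 2-fold and hatching marks genes at or below the floor on the dimmer array. Col18a1 at 2.72 is the longest bar to the right, and the 11 genes of the lysosomal breakdown list lie between −0.67 and 0.66.

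Markers of glia and of other cell types were read on the same arrays, since matrix genes are shared with mesenchymal cells. All 6 glial and glioma markers (S100b, Gfap, Vim, Nes, Olig2 and Sox2) were above the floor on both arrays, with a summed log2 level of 50.92 in C6 and 52.93 in SMiG. Of these, S100b at 1.20 and Sox2 at 1.16 were at least 2-fold higher in SMiG, Gfap was at −0.56, and Olig2, Vim and Nes were at 0.35, 0.01 and −0.15. Of 6 fibroblast and mesenchymal markers, all 6 were above the floor in C6 and 5 in SMiG, with summed levels of 43.36 and 38.59. The set did not move as one: Pdgfrb at −2.36, Pdgfra at −1.17 and Col1a1 at −1.15 were at least 2-fold lower in SMiG, Col1a2 at −0.30 was near the floor, and Col3a1 and Thy1 were at 0.15 and 0.06. The lower values of Pdgfrb, Pdgfra and Col1a1 stand beside those of Sdc1, Has2, Sulf2 and the other lower members, and their part in these was not tested. The fibroblast proteoglycan genes Dcn and Lum were below the floor on both arrays. Of 6 microglia and macrophage markers, Cd68 alone was above the floor, in C6, and Ptprc, Csf1r, Itgam, Aif1 and Cx3cr1 were below it on both. Of 4 measured endothelial markers, 2 (Cldn5 and Tek) were above the floor, with Cdh5 below it on both arrays. Of 6 neuronal markers, 3 were above the floor in C6 (Map2, Snap25 and Rbfox3) and 2 in SMiG (Map2 and Snap25). Map2 was at 8.80 in C6 and 9.01 in SMiG, Snap25 at 5.65 and 6.17, and Rbfox3 at 5.12 and 4.94. Tubb3, Syt1 and Stmn2 were below the floor on both arrays.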

How the data were processed

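RNA of 2 samples was measured on whole-transcript GeneChip arrays after end-labelling of sense cDNA, per the labels' protocols. The authors' deposited table gives 1 value per probe set and array on a log2 scale. The base was read from the values, whose maximum of 13.09 exceeds 11.09, the natural log of a 16-bit scanner limit. The background correction, normalization and probe-set summary are not given in these sources and could change any fold. The sorted columns differed by a median of 0.036, and no further normalization was applied.

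Genes were named from probe sets with a single symbol in the platform annotation (18511 of 36685, giving 18166 genes, probe sets averaged). Probe sets with several symbols (575) or none (17599) were left out. All 70 members matched RefSeq by gene number, with 0 symbols changed. Genes were counted at a measured difference of 1. If a gene's dimmer value did not exceed its floor, its fold is a lower bound against that floor. Of the 1340 silent genes, 77 were detected and 0.746% passed 2-fold. The members, roles and lists were chosen with earlier results of these data known. Named genes were the members past 2-fold, the syndecan, glypican, lectican and hyaluronan synthase genes, Cd44, and the 4 widest detected differences per role and list. Others were named after their values were seen. The counting was tested on simulated data. The alternatives were other floors, scalings, probe-set rules and fold thresholds. Python 3.11.15, numpy 2.4.6, pandas 2.3.3, statsmodels 0.14.6 and matplotlib 3.10.9 were used.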

Additional observations from a re-analysis of the deposited data

How the results depend on the processing

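The counts of 6 lower and 3 higher members were the same with a stricter floor (99th percentile), values raised to the floor, centring on the median, removal of a lowess trend, quantile normalization, the brightest probe set and each probe set alone. The last pair could not move the members' values, since each member has 1 probe set. With no floor the counts were 6 and 4, beside 3.98% lower and 1.98% higher among all genes. The fourth higher member was Fmod, below the floor on both arrays. At a 1.5-fold threshold 7 of the 47 detected members were higher and 11 lower, beside 1140 and 1650 of all 10941 detected genes. At 3-fold 1 member was higher and 5 lower, beside 80 and 275 of all detected genes. These counts change by the construction of the threshold. Among the 5 lower at 3-fold, Chst15 was below the floor in SMiG, so a 3-fold difference is not supported for it. The members' median stayed between 0.00 and 0.08 across the floors, scalings and probe-set rules. The differences of 44 named members under 6 settings gave 257 values, and the widest shift was 0.29. No called difference turned in sign, a check that only the 6 lower and 3 higher members could fail. The brightest probe set and each probe set alone are among the 6 settings and could not move these values. No paired analysis was possible because each group has 1 array. Genes near the floor (Ncan, Bcan, Chst7, Chst8) carry little signal over background.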

Other observations

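Fmod, encoding fibromodulin, a small leucine-rich proteoglycan that binds collagen, was at 3.45 in C6 and 4.57 in SMiG, a difference of 1.12 with both values below the floor. A probe set that carries the symbols of both Hs3st3a1 and Hs3st3b1, left out above, was at 5.64 in C6 and 6.07 in SMiG, a difference of 0.43 beside 0.50 and 0.51 for the single-symbol probe sets of these genes.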
